A study of Mus musculus with 25 samples.

Results

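The 9 genes described here form the machinery that displays peptides on major histocompatibility complex (MHC) class I molecules: the classical heavy chains H2-K1 and H2-D1, their light chain B2m, the peptide transporter subunits Tap1 and Tap2, the loading factor Tapbp (tapasin), and the immunoproteasome subunits Psmb8, Psmb9 and Psmb10. They were chosen by name for their role, from the 45706 genes listed in the larger of 2 tables of estimated counts, and all 9 were measured in all 25 libraries. The first table (bacTRAP) held 16 libraries of hypothalamus from mice that carried a tamoxifen-inducible Cre under the Slco1c1 promoter (Slco1c1-CreERT2 tg/wt) and the Cre-dependent GFP-tagged ribosomal protein allele ROSA26 lSl-L10aGFP tg/wt. Every mouse carried both alleles, was 12 weeks old and was studied 3 weeks after tamoxifen, after 3 days of high-fat feeding (HFD) or of the control diet (CD). Each library came from a pool of 4 mice (2 female, 2 male), and each diet had 4 pools, with whole-lysate RNA (INPUT) and RNA precipitated with the tagged ribosomes (IP). The other table held 9 libraries of the mouse cell line cEND, derived from brain endothelium, given vehicle (DMSO) or the Glut1 glucose-uptake blocker WZB117 (0.5 or 10 µM). Each of the 3 treatments was sequenced once at passages 12, 14 and 18, so that replicates in cEND are passages of 1 line.

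MHC class I molecules carry peptides from proteins made inside the cell to its surface, where CD8 T cells inspect them. The immunoproteasome cuts proteins into such peptides, TAP pumps them into the endoplasmic reticulum, and tapasin holds empty heavy chain and B2m next to TAP until a peptide binds. Interferons raise these genes together in most cell types, and in the healthy brain the system is known to be more prominent in vessels and microglia than in neurons.

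Total counts per library, in M (1e6 counts), were 29.0 to 42.8 M in INPUT, 27.9 to 41.2 M in IP and 27.3 to 41.3 M in cEND. The labels call the bacTRAP cells endothelial, and all 10 endothelial markers examined (Pecam1, Cdh5, Tie1, Tek, Kdr, Flt1, Eng, Cldn5, Esam and Emcn) were higher in IP than in INPUT, with a median log2 fold change of 2.27. All 10 astrocyte markers (among them Aqp4, Gja1, Slc1a2 and Slc1a3) were also higher, with a median of 2.94. Summed over each list, astrocyte markers reached 38930 to 49410 CPM (counts per 1e6 counts of the library) in IP against 4822 to 6587 in INPUT, and endothelial markers 49.0 to 81.0 CPM against 12.1 to 19.5. In IP, 11 of 12 microglia markers and all 7 measured lymphocyte markers were lower. Neuron markers still summed to 3413 to 4799 CPM in IP, against 9134 to 11050 in INPUT. Oligodendrocyte markers summed to 597 to 731 CPM in IP, against 2323 to 2755. Microglia markers summed to 81.1 to 99.05 CPM in IP, against 260 to 357. The IP fraction therefore held transcripts of astrocytes and of other cell types as well as endothelial ones. It is called IP and not endothelial RNA in what follows. In cEND the endothelial markers summed to 4696 to 6781 CPM, while the microglia markers P2ry12, C1qa, C1qb, C1qc, Fcrls and Sall1 and the lymphocyte markers Cd3e, Cd3g and Nkg7 stood at 0 in every library. In bulk libraries of this kind, fewer cells of a type and less RNA per cell cannot be told apart.

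Class I promoters are known for a compact array of elements: an NF-kB-like site next to an interferon-response element, followed by a module that holds a CRE-like element and a CCAAT box. The 250 bases before the RefSeq start (GRCm38.p6) are shown for a heavy chain, and 249 bases for B2m, because neither lies in annotated exons. H2-K1 holds a match to the letters searched for each of these elements, and B2m to all but the NF-kB-like letters. Only the fixed spacing of GGGNNTTCC was searched for NF-kB-like sites, so that B2m may hold one in another form. Coordinates are chr17:34000348-34000597 on the minus strand for H2-K1 and chr2:122147437-122147685 on the plus strand for B2m. Capitals mark matches, 5′ to 3′, to GGGNNTTCC (NF-kB-like), GAANNGAA or GAAANNGAA (interferon-response-like), TGACG (CRE-like) and CCAAT, each on either strand.
H2-K1: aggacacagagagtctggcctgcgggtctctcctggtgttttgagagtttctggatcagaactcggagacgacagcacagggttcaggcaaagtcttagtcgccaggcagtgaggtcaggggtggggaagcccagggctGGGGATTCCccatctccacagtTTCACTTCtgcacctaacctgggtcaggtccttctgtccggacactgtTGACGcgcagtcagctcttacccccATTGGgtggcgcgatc
B2m: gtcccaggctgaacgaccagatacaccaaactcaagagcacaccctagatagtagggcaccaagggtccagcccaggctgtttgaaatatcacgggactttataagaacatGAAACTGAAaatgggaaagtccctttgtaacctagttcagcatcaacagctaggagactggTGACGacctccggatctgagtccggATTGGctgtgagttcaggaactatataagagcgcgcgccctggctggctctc
The NF-kB-like and interferon-response-like matches of H2-K1 had a near copy in H2-D1, on the opposite strand of the chromosome and 29 of 30 bases identical. These stretches are chr17:34000429-34000458 (minus strand) and chr17:35262923-35262952 (plus strand).
H2-K1 stretch: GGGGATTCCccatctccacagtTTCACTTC
H2-D1 stretch: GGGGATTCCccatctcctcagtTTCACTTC

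Of the 9 genes, 8 had an entry among the promoters searched and Tap2 had none. The windows of 5 of them (H2-D1, Tap1, Tapbp, Psmb8 and Psmb9) lie wholly within exons that GENCODE M21 annotates, so that they may hold transcribed sequence. For H2-D1, Tapbp, Psmb8 and Psmb9 the GENCODE gene start lies upstream of the RefSeq start. The Tap1 starts nearly coincide, and the Tap1 window (34187306 to 34187555) lies within the span of Psmb9 (34181987 to 34187764). CCAAT was found for H2-K1, H2-D1, B2m, Tap1, Tapbp and Psmb9, and 33.9 percent of all 32851 promoters held it. TGACG was found for H2-K1, H2-D1, B2m, Tap1 and Psmb9, against 17.8 percent of all promoters. GGGNNTTCC was found for H2-K1 and H2-D1 (4.98 percent of all), and the strict GAAANNGAA for B2m (7.13 percent of all). The looser GAANNGAA, which was added after the data had been seen, was found for H2-K1, H2-D1 and Psmb10 (17.2 percent of all), and TTCNNNGAA, the STAT-type letters, for Psmb8 (7.02 percent of all). Tap1 and Psmb9 are transcribed away from each other from RefSeq starts that span 225 bases, so that their windows share sequence. Such matches describe letters only.

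In GRCm38 (GENCODE M21), 7 of the 9 genes lie within the MHC on chromosome 17. Tapbp (33915899 to 33929292, plus strand) and H2-K1 (33996017 to 34000347, minus) are at one side. A block of neighbours follows with Psmb9 (34181987 to 34187764, minus), Tap1 (34187553 to 34197225, plus), Psmb8 (34197721 to 34201454, plus) and Tap2 (34203527 to 34216321, plus), and H2-D1 (35262730 to 35267499, plus) lies apart. B2m is on chromosome 2 (122147686 to 122153083, plus) and Psmb10 on chromosome 8 (105935735 to 105938444, minus). That makes 7 on chromosome 17 and 2 elsewhere. Psmb9 and Tap1 overlap by 212 bases on opposite strands (34187553 to 34187764), and reads there are uncertain because no source used here says that counting used strand. Of all 50-base words in their exons, 9.63 percent in H2-K1 and 12.8 percent in H2-D1 also occur in exons of other genes, most often the class I genes H2-Q10 and H2-Q1. The estimated counts of H2-K1, H2-D1 and Tapbp were not whole numbers in any library, and those of Tap1, Tap2, Psmb8 and Psmb9 were not whole in some. B2m and Psmb10 had whole counts throughout and shared no such word with another gene. How shared reads were assigned is not stated, and the levels of H2-K1 and H2-D1 are reported as uncertain.

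Levels per gene length (CPM per kilobase of merged exons) put B2m first in every fraction and differed in order below it. In INPUT, mean values were 827 for B2m, 48.8 for H2-D1, 18.6 for H2-K1, 15.9 for Psmb10, 9.70 for Psmb8, 4.59 for Psmb9, 2.86 for Tapbp, 1.75 for Tap1 and 0.602 for Tap2. The IP libraries kept that order, from 2633 for B2m to 2.60 for Tap2, and in both fractions the ranges of H2-K1 and Psmb10 and those of Tapbp and Tap1 overlapped while the other neighbours did not. In cEND the order was B2m (331), H2-D1 (152), H2-K1 (56.5), Tapbp (38.02), Psmb10 (16.4), Psmb8 (8.83), Tap2 (5.89), Tap1 (4.63) and Psmb9 (0.359). There the ranges of H2-K1 and Tapbp overlapped, as did those of each neighbouring pair from Psmb10 to Tap1. With the length of the principal transcript in place of merged exons, B2m stayed first, and the last places stayed with Tap2 in IP and Psmb9 in cEND. In between, H2-D1 (114.5), H2-K1 (88.2), Psmb8 (72.7), Psmb10 (58.1) and Psmb9 (51.9) then formed 1 run of overlapping neighbours in IP.

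**Figure D1:**
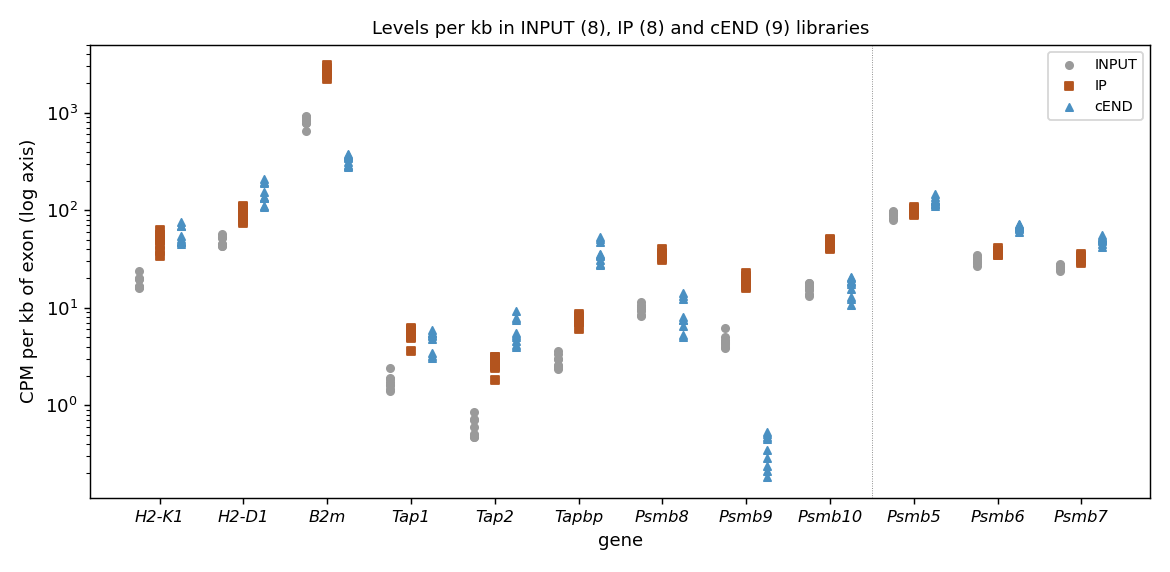
Level of each of the 9 genes, and of Psmb5, Psmb6 and Psmb7 right of the dotted line, in CPM per kilobase of merged exon length (log axis), with 1 point per library for INPUT (circles), IP (squares) and cEND (triangles); the bacTRAP and cEND tables were normalised separately. B2m is highest in each, and Psmb9 lies far lower in cEND (mean 0.359) than in IP (mean 19.2).

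All 9 genes were higher in IP than in INPUT, with no overlap between the 8 IP and the 8 INPUT libraries for any of them. Against this, 41.6 percent of the 17592 genes tested were called higher. The 9 log2 fold changes ran from 0.93 to 2.10 with a median of 1.59, while the median over all genes tested was -0.02. Ribosomal and mitochondrial RNA made up 30.2 to 37.6 percent of counts in INPUT and 2.83 to 3.53 percent in IP, and with library sizes that leave these genes out, all 9 were again called.

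Of the heavy chains, which hold the peptide, H2-K1 stood at 57.5, 58.0, 47.0 and 69.5 CPM in CD INPUT and at 47.7, 48.9, 48.2 and 59.9 in HFD INPUT (replicates 1 to 4). Its IP libraries read 163, 165, 112 and 184 CPM with CD and 145, 145, 101 and 128 with HFD. The lowest IP library, HFD replicate 3, thus lay above every INPUT library, and H2-K1 rose by a log2 fold change of 1.38 ± 0.12 (SE; adjusted p = 4.9e-08, edgeR quasi-likelihood test with Benjamini-Hochberg adjustment). H2-D1 read 136, 136, 110 and 148 CPM in CD INPUT, 111, 115, 117 and 133 in HFD INPUT, 285, 278, 199 and 271 in CD IP and 239, 243, 189 and 220 in HFD IP. Replicate 3 was again the lowest IP library of each diet. H2-D1 had the smallest rise of the 9 genes, 0.93 ± 0.08 (adjusted p = 2.8e-09, edgeR), so that H2-D1 per kilobase was 2.64 ± 0.111 times H2-K1 in INPUT and 1.94 ± 0.135 times in IP (SD, n = 8).

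B2m, the light chain common to classical and most nonclassical class I molecules, read 706, 721, 558 and 790 CPM in CD INPUT and 675, 781, 677 and 784 in HFD INPUT. In IP it read 2337, 2647, 1903 and 2197 CPM with CD and 2287, 2490, 2124 and 2133 with HFD. The lowest IP library held 1903 CPM while no INPUT library passed 790, and the log2 fold change was 1.67 ± 0.07 (adjusted p = 1.3e-15, edgeR). B2m per kilobase was 12.3 ± 1.27 times the sum of H2-K1 and H2-D1 in INPUT and 18.8 ± 2.32 times in IP (SD, n = 8).

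Tap1 and Tap2 form the peptide transporter as a heterodimer. Tap1 read 9.38, 10.6, 8.10 and 13.1 CPM in CD INPUT, 8.86, 8.75, 7.67 and 10.3 in HFD INPUT, 31.6, 33.4, 27.7 and 33.9 in CD IP and 28.4, 30.5, 19.8 and 27.0 in HFD IP. Tap2 read 2.69, 1.88, 2.26 and 3.20 CPM in CD INPUT, 1.90, 1.81, 1.77 and 2.71 in HFD INPUT, 9.04, 12.0, 9.46 and 11.8 in CD IP and 9.60, 9.92, 6.92 and 9.99 in HFD IP. For both subunits HFD IP replicate 3 was the lowest of the IP libraries. Tap2 had the largest log2 fold change of the 9 genes (2.10 ± 0.12, adjusted p = 2.9e-14) and Tap1 rose by 1.59 ± 0.10 (adjusted p = 1.7e-11; both edgeR). Tap2 was also the least counted in INPUT, with 50 to 123 reads per library. Tapbp, which bridges TAP and the heavy chain, read 10.7, 9.23, 9.40 and 13.1 CPM in CD INPUT and 10.9, 8.59, 8.89 and 12.3 in HFD INPUT. Its IP libraries read 28.4, 28.1, 25.9 and 30.2 CPM with CD and 27.8, 26.2, 21.9 and 31.0 with HFD, a log2 fold change of 1.40 ± 0.09 (adjusted p = 2.9e-12, edgeR).

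Psmb8, Psmb9 and Psmb10 replace the catalytic subunits Psmb5, Psmb6 and Psmb7 of the constitutive proteasome when an immunoproteasome is assembled. Psmb8 read 34.3, 32.6, 28.3 and 36.5 CPM in CD INPUT, 28.0, 31.3, 32.9 and 38.6 in HFD INPUT, 122, 124, 105 and 110 in CD IP and 113, 117, 119 and 136 in HFD IP. Psmb9 read 16.4, 17.2, 15.4 and 18.2 CPM in CD INPUT, 14.5, 14.1, 16.1 and 22.6 in HFD INPUT, 76.7, 71.8, 61.5 and 59.0 in CD IP and 72.9, 68.1, 69.2 and 82.4 in HFD IP. The IP levels of both genes were several times those of INPUT in each diet. Psmb10 read 23.9, 26.4, 25.8 and 27.8 CPM in CD INPUT, 28.5, 22.3, 30.9 and 30.6 in HFD INPUT, 70.1, 86.4, 69.2 and 74.9 in CD IP and 71.2, 72.3, 81.8 and 83.6 in HFD IP. The 3 log2 fold changes were 1.85 ± 0.07 for Psmb8, 2.06 ± 0.09 for Psmb9 and 1.495 ± 0.07 for Psmb10 (adjusted p = 1.3e-17, 1.7e-13 and 5.9e-16, edgeR). Their constitutive counterparts also rose, by only 0.13 for Psmb5 (adjusted p = 0.020), 0.29 for Psmb6 and 0.29 for Psmb7 (edgeR). Per kilobase, the ratio of Psmb9 to Psmb6 was accordingly 0.150 ± 0.0181 in INPUT and 0.512 ± 0.0442 in IP, that of Psmb8 to Psmb5 0.107 ± 0.0141 and 0.354 ± 0.0408, and that of Psmb10 to Psmb7 0.606 ± 0.0809 and 1.40 ± 0.198 (SD, n = 8). None of these 3 ratios overlapped between INPUT and IP. The size of each ratio depends on the length used for each gene, which scales INPUT and IP alike. In IP, Psmb10 held 76.2 CPM and Psmb7 110.1 CPM on average, with principal transcripts of 1311 and 1160 bases. Psmb10 thus stood above Psmb7 in IP with merged exon length and not with principal-transcript length.

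**Figure D2:**
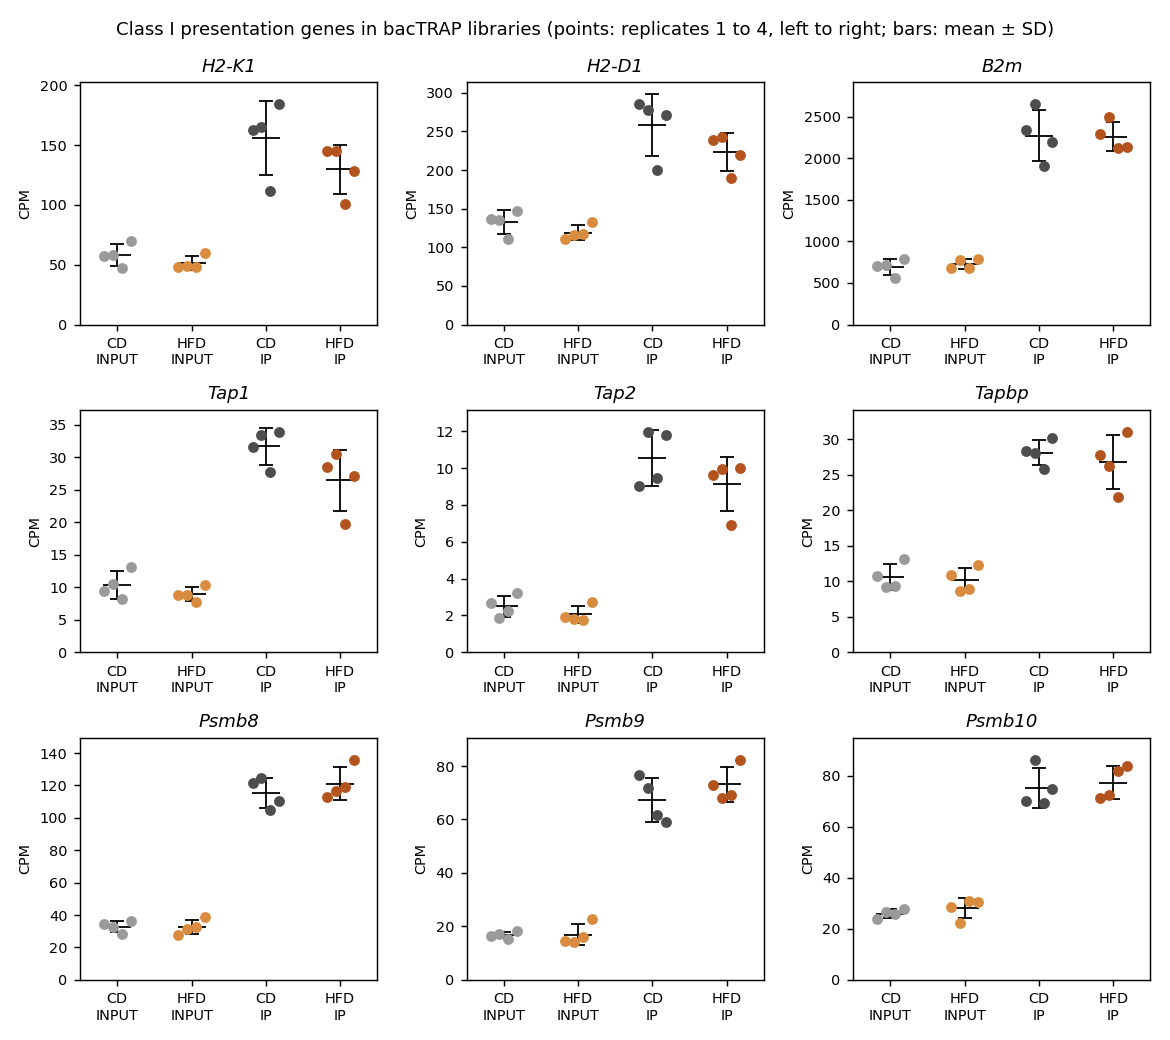
CPM of each of the 9 genes in the 16 bacTRAP libraries, with 1 panel per gene and 1 point per library (CD INPUT, HFD INPUT, CD IP, HFD IP, replicates 1 to 4 from left to right; bars are mean ± SD). In every panel all IP points lie above all INPUT points, whereas CD and HFD overlap within each fraction.

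Lists of related genes were counted beside the 9. Among 14 further proteasome core and activator genes, 13 rose and 1 fell in IP, with a median log2 fold change of 0.38; the interferon-inducible PA28 activator subunits Psme2 (0.89) and Psme1 (0.86) had the lowest p-values and Psme3 (-0.16) was the one that fell. Among 12 folding and trimming genes 8 rose and 4 fell, with a median of 0.40, and the peptide-trimming aminopeptidase Erap1 (1.57) and the tapasin relative Tapbpl (1.33) were among those that rose. The 4 that fell were Tpp2 (-0.51), Lnpep (-0.37), Uggt1 (-0.30) and Hspa5 (-0.19). Of 12 measured nonclassical class I and class I-like genes 7 rose and 2 fell (median 0.53), with Mr1, which presents vitamin B metabolites, at 2.40 and H2-Q4 at 1.81; H2-T24 (-0.61) and H2-Q7 (-0.73) fell. Of 20 class I transcription factors and cytokine receptors 17 rose and 2 fell (median 0.86), among them Rela (1.61), Stat3 (1.49), Irf1 (1.79) and the class I transactivator Nlrc5 (0.66), and Ifngr2 (-0.33) and Creb1 (-0.23) fell. Of 8 class II genes and regulators 2 rose, H2-DMa (0.50) and the transactivator Ciita (0.81), and 3 fell, namely Ctss (-4.00), a lysosomal protease of antigen-presenting cells, H2-Eb1 (-1.48) and H2-Aa (-0.77). The part of any one cell type in the rise of the 9 genes was not tested.

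Short high-fat feeding was compared with control diet in the IP libraries, and 0 of the 9 genes passed the threshold, where 0.0883 percent of all genes did (14 of 15858; 1831 at an unadjusted p under 0.05, edgeR). In this fit, without the replicate number as a block, 1 of the 9, Tap1, was at an unadjusted p under 0.05 (edgeR). DESeq2 called 0 of the 9, where it called 193 of 10701 genes. All 9 genes overlapped between the diets. The log2 fold changes (HFD minus CD) were -0.25 for H2-K1 (95 percent interval -0.66 to 0.16, adjusted p = 0.65), -0.20 for H2-D1 (-0.44 to 0.05, adjusted p = 0.54) and 0.01 for B2m (-0.19 to 0.21, adjusted p = 0.98, all edgeR). Tap1 was at -0.25 (-0.49 to -0.00044), with an unadjusted p of 0.0496 and an adjusted p of 0.43 (edgeR), and Tap2 at -0.20 (adjusted p = 0.59). Tapbp (-0.05), Psmb8 (0.09), Psmb9 (0.14) and Psmb10 (0.06) had adjusted p-values of 0.58 to 0.87 (edgeR). H2-K1, H2-D1 and Tap1 were each lower with HFD in 4 of 4 same-numbered comparisons in IP, but those numbers did not pair the IP libraries by the criterion used. With the number as a block all the same, these 3 of the 9 were at an unadjusted p under 0.05, where 2089 of 15858 genes were (edgeR). Their adjusted p-values were 0.16 for H2-K1, 0.20 for H2-D1 and 0.17 for Tap1 (edgeR). CD IP replicate 3 was the lowest CD IP library for H2-K1, H2-D1 and Tap1, among others. Its endothelial markers summed to 49.0 CPM, against 74.3 to 81.0 in the other CD IP libraries and 60.5 to 71.2 with HFD. Its astrocyte markers summed to 49410 CPM, against 41490 to 43850 in the other CD IP libraries and 38930 to 42350 with HFD. The part of these differences in the diet values was not tested.

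In INPUT, 0 of the 9 genes passed the threshold as well, where 0.0355 percent of all genes did (6 of 16879; 1258 at an unadjusted p under 0.05, edgeR). DESeq2 called 0 of the 9, where it called 50 of 18007 genes, and in the fit without pairing 0 were at an unadjusted p under 0.05. Log2 fold changes were -0.18 for H2-K1, -0.15 for H2-D1, 0.07 for B2m, -0.21 for Tap1, -0.28 for Tap2, -0.06 for Tapbp, -0.01 for Psmb8, 0.01 for Psmb9 and 0.11 for Psmb10, with adjusted p-values of 0.71 to 1.00 (edgeR). Here the same-numbered pools deviated together, and with the replicate number as a block still 0 of the 9 were called, where 43 of all genes were. In that fit 3 of the 9 were at an unadjusted p under 0.05, where 1716 of all 16879 genes were (edgeR). The 3 were H2-K1 (-0.17, adjusted p = 0.25), H2-D1 (-0.15, adjusted p = 0.37) and Tap1 (-0.20, adjusted p = 0.44, edgeR). Tap1 and Tap2 were lower with HFD in 4 of 4 same-numbered INPUT comparisons, and H2-K1 and H2-D1 in 3 of 4. None of the 9 diet effects differed between IP and INPUT by the interaction test (adjusted p = 0.9999 for each, edgeR, and 0 of the 9 by DESeq2; 0.0 percent of all genes called, 755 at an unadjusted p under 0.05, and 1 higher and 1 lower by DESeq2). The widest intervals were those of Tap2 in INPUT (-0.70 to 0.13) and H2-K1 in IP, and changes within them were not detectable with 4 pools a diet. Of 9 ratios between genes per kilobase, 1 did not overlap between diets: B2m over the sum of H2-K1 and H2-D1 was 11.4, 11.6, 11.0 and 11.4 in CD INPUT and 13.2, 14.8, 12.7 and 12.7 in HFD INPUT. Every HFD INPUT library stood above every CD INPUT library, but the ratio was singled out after its values had been seen and has no test. The summed endothelial markers separated the same libraries, narrowly, with 12.1 to 15.07 CPM in CD INPUT and 15.11 to 19.5 in HFD INPUT (median log2 fold change of 9 measured markers 0.56, 0 called by edgeR), and their part in the ratio was not tested. In IP the same ratio overlapped (15.2 to 19.2 with CD, 18.7 to 22.9 with HFD).

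**Figure D3:**
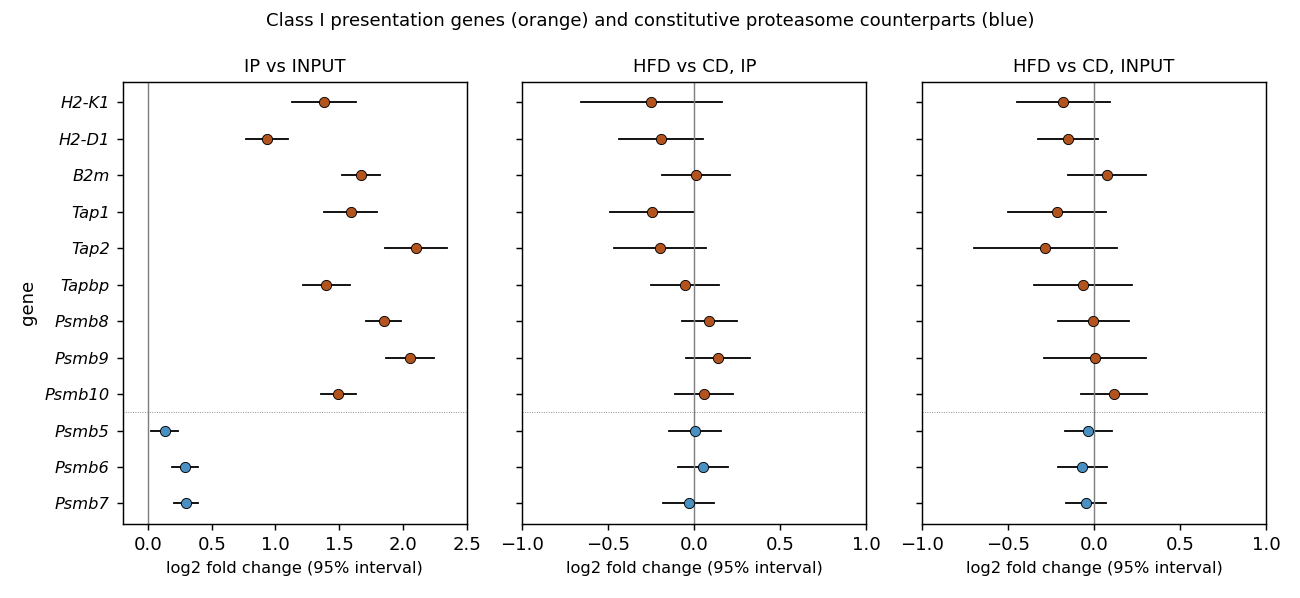
Log2 fold change of each of the 9 genes (orange) and of Psmb5, Psmb6 and Psmb7 (blue) with its 95 percent interval (edgeR) for IP against INPUT and for HFD against CD in IP and in INPUT. For the 9 genes the IP against INPUT values run from 0.93 to 2.10 and the diet values lie between -0.28 and 0.14.

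The cEND line, cultured without the other cells of the brain, held the same genes in other proportions. As the tables were normalised separately, values are set side by side without a test. B2m over both heavy chains per kilobase was 1.23 to 2.33 in the 9 cEND libraries, against 15.2 to 22.9 in IP. Psmb9 was counted with only 22 to 72 reads per cEND library (0.674 to 1.94 CPM), while its neighbour Tap1 had 582 to 1268 reads. Psmb9 over Tap1 per kilobase was thus 0.0454 to 0.103 in cEND and 2.61 to 5.25 in IP, and Psmb9 over Psmb6 0.00534 ± 0.00211 in cEND (SD, n = 9). The other immunoproteasome ratios in cEND were 0.0721 ± 0.0327 for Psmb8 over Psmb5 and 0.333 ± 0.0911 for Psmb10 over Psmb7. Tapbp over Tap1 went the other way, with 6.05 to 10.4 in cEND and 1.27 to 1.73 in IP, and so did Tap2 over Tap1, with 0.859 to 1.66 and 0.415 to 0.535.

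WZB117 was compared with DMSO and between its doses over 3 passages each. In the fit without passage, 0 of the 9 genes were called at 10 µM against DMSO or against 0.5 µM (1.27 percent of all genes in each), and 0 at 0.5 µM against DMSO (0.0 percent, 55 genes at an unadjusted p under 0.05, edgeR; 0 by DESeq2). Of the 9 genes, 0 were at an unadjusted p under 0.05 in these 3 comparisons without passage, and DESeq2 called 0, where it called 493 of 13387 genes at 10 µM against DMSO and 483 of 13872 against 0.5 µM. Same-passage libraries deviated together (correlations of 0.54 to 0.84), and with passage as a block 2 of the 9 were called at 10 µM, in opposite directions, where 18.5 percent of all genes were called against DMSO and 17.8 percent against 0.5 µM.

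H2-D1 read 282, 348 and 487 CPM with DMSO, 285, 350 and 504 with 0.5 µM and 344, 394 and 534 with 10 µM at passages 12, 14 and 18. The 10 µM library was the highest at each passage, although the 3 groups overlapped. H2-D1 rose with 10 µM by 0.20 ± 0.06 (SE) against DMSO (adjusted p = 0.021, edgeR, passage block) and by 0.18 against 0.5 µM (adjusted p = 0.049); without the block the value was 0.19 with an interval of -0.40 to 0.78 (adjusted p = 0.90). Psmb10 read 31.4, 21.1 and 34.8 CPM with DMSO, 31.9, 21.8 and 35.3 with 0.5 µM and 26.4, 18.3 and 30.04 with 10 µM. Here the 10 µM library was the lowest at each passage. Psmb10 fell by 0.22 ± 0.07 against DMSO (adjusted p = 0.034, edgeR, passage block) and by 0.25 against 0.5 µM (adjusted p = 0.016), with -0.22 and an interval of -0.78 to 0.34 without the block (adjusted p = 0.86). H2-K1 was at 0.13 against DMSO (adjusted p = 0.16, edgeR, passage block), and the remaining 6 genes had adjusted p-values of 0.31 to 0.92. At 0.5 µM against DMSO all 9 values lay between -0.06 and 0.11 with the block (adjusted p = 0.9994 for each, edgeR). Among the surrounding lists, the single gene called with 10 µM in the fit without passage was Hspa5, the chaperone BiP of the endoplasmic reticulum, in the folding and trimming list (0.70, adjusted p = 0.0054, edgeR). Treatment time was not given in the sources used here.

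Passage was compared next. With treatment as a term in the fit, 6 of the 9 fell and 1 rose from passage 12 to 14, where 11.5 percent of all genes fell and 10.1 percent rose, and all 9 rose from passage 14 to 18, where 15.8 percent of all 15466 genes rose. From passage 12 to 18, 5 of the 9 rose and 0 fell, against 15.9 percent of all genes. The median log2 fold change of the 9 from passage 14 to 18 was 0.72, and over all genes it was -0.01. Each passage held 3 libraries that differed in treatment, from 1 culture line, so that passage cannot be told apart from anything else that differed between those cultures.

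H2-K1 read 139, 140 and 161 CPM at passage 12 (DMSO, 0.5 and 10 µM), 144, 133 and 149 at passage 14 and 203, 202 and 222 at passage 18. Passages 12 and 14 overlapped, and passage 18 stood above both, by 0.56 ± 0.06 over passage 14 (SE; adjusted p = 3.5e-08, edgeR) and 0.51 ± 0.06 over passage 12. H2-D1, whose values are given above, was the only gene of the 9 called higher at each step, 0.27 ± 0.06 from passage 12 to 14 and 0.48 ± 0.06 from 14 to 18 (adjusted p = 0.0022 and 5.9e-07, edgeR); the first of these was not called without the treatment term (adjusted p = 0.077). B2m read 314, 268 and 303 CPM at passage 12, 241, 245 and 253 at passage 14 and 317, 322 and 299 at passage 18. It fell by 0.26 and then rose by 0.34 (adjusted p = 0.0052 and 0.00017, edgeR), and passages 12 and 18 overlapped (0.09, adjusted p = 0.34).

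Tap1 read 26.0, 28.5 and 32.1 CPM at passage 12, 19.1, 17.5 and 16.9 at passage 14 and 29.9, 30.2 and 28.2 at passage 18. Every passage 14 library lay below all others, with a fall of 0.70 ± 0.09 and a rise of 0.72 ± 0.09 (adjusted p = 6.1e-07 and 1.7e-07, edgeR). Tap2 read 20.8, 19.8 and 19.0 CPM, then 17.2, 15.8 and 14.9, then 29.96, 34.8 and 28.4, and Tapbp read 125, 126 and 129, then 112, 103 and 98.6, then 171, 185 and 194. Both were lowest at passage 14 and highest at passage 18, with no overlap between any passages. Tap2 fell by 0.32 and rose by 0.96 ± 0.08, and Tapbp fell by 0.27 and rose by 0.81 ± 0.07 (adjusted p = 9.5e-10 and 2.7e-10 for the rises, edgeR).

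Psmb8 had the largest rise, 1.25 ± 0.09 from passage 14 to 18 (adjusted p = 2.7e-10, edgeR). Its values were 25.4, 25.5 and 27.3 CPM at passage 12, 21.8, 17.8 and 16.9 at passage 14 and 41.5, 47.9 and 44.6 at passage 18, again without overlap. Psmb9 read 1.27, 0.865 and 1.72 CPM, then 0.674, 1.05 and 0.783, then 1.67, 1.86 and 1.94, and rose by 1.11 ± 0.30 from passage 14 to 18 (adjusted p = 0.0049, edgeR). With so few reads its SE was the widest of the 9, and its value from passage 12 to 14 (-0.60, adjusted p = 0.18) did not pass. Psmb10 read 31.4, 31.9 and 26.4 CPM, then 21.1, 21.8 and 18.3, then 34.8, 35.3 and 30.04. It fell by 0.55 and rose by 0.71 ± 0.07 (adjusted p = 2.1e-06 and 1.6e-08, edgeR), and passages 12 and 18 overlapped (0.16, adjusted p = 0.088). The constitutive counterparts did not share the rise: from passage 14 to 18 Psmb7 fell by 0.18 (adjusted p = 0.031), and Psmb5 and Psmb6 were at -0.09 and -0.05 (adjusted p = 0.34 and 0.66, edgeR).

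**Figure D4:**
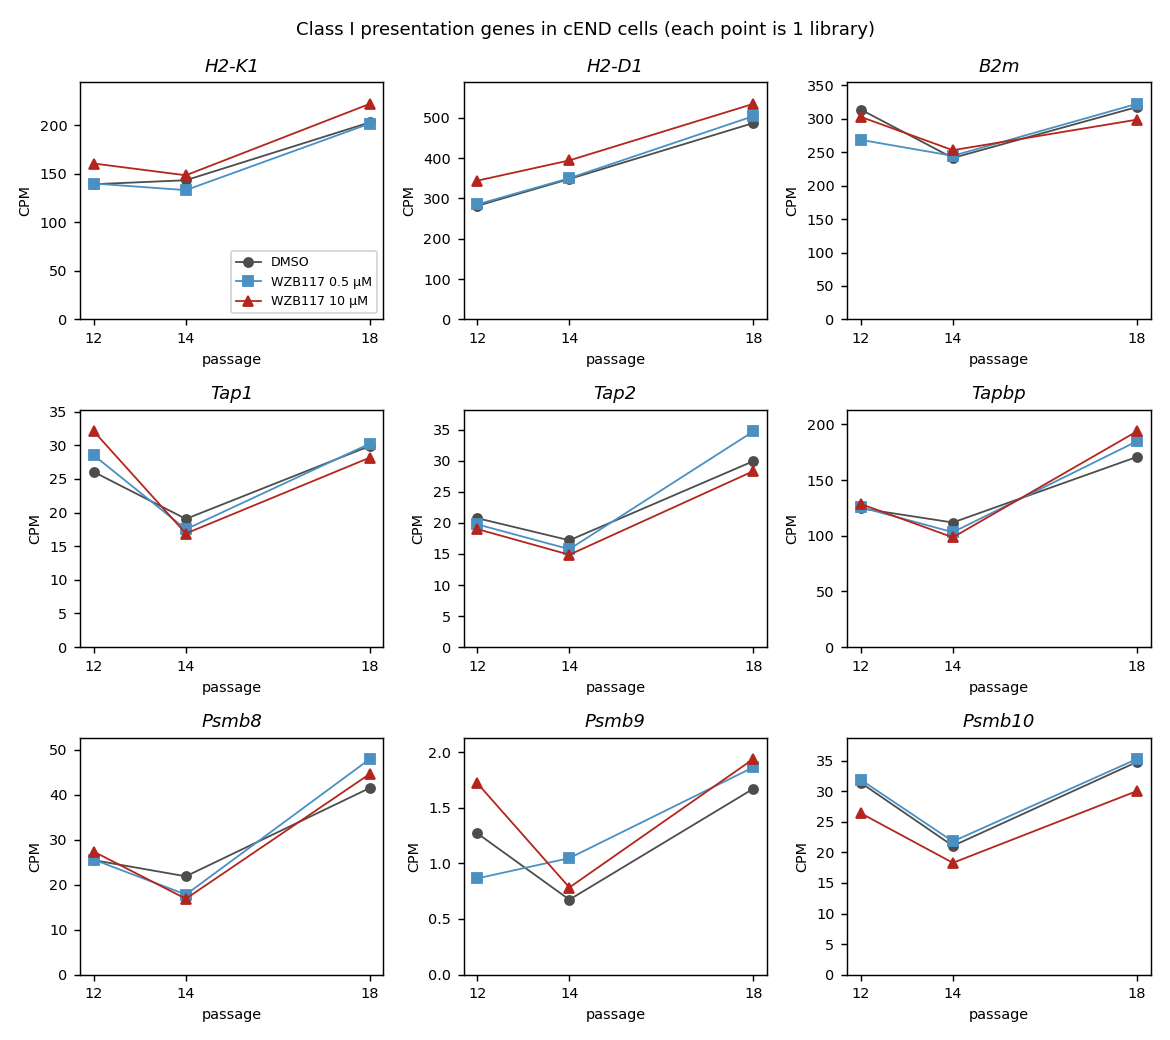
CPM of each of the 9 genes in the 9 cEND libraries against passage (12, 14 and 18), with 1 line per treatment (DMSO, 0.5 and 10 µM WZB117). In every panel the 3 passage 18 points lie above the 3 passage 14 points, and in each panel but those of H2-K1, H2-D1 and Psmb9 the 3 passage 14 points are the lowest.

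From passage 12 to 14 the calls depended on single libraries: 5 to 8 of the 9 were called when 1 library was left out. B2m was not called without DMSO at passage 12 (adjusted p = 0.092) or at passage 14 (0.067), Tap2 not without DMSO at passage 12 (0.056) or 0.5 µM at passage 14 (0.086), Tapbp not without 10 µM at passage 14 (0.055), and Psmb9 was called without 0.5 µM at passage 12 (0.045, all edgeR). From passage 14 to 18, all 9 were called in each such fit. Among the other lists, 12 of 13 nonclassical genes rose from passage 14 to 18 with a median of 0.69, among them H2-T23 (1.08), the mouse counterpart of HLA-E, and Fcgrt (1.26), the neonatal Fc receptor that pairs with B2m. Of 20 transcription factors and cytokine receptors 11 rose and 1, Jak2 (-0.40), fell, with Nlrc5 at 1.04, Ifnar1 at 0.64 and Irf1 at 0.54. Nlrc5 had also fallen from passage 12 to 14, by 1.54. Of 14 core and activator genes 3 rose, Psme1 (0.49), Psme2 (0.52) and Psma5 (0.20), and Psme3 (-0.32) and Psma2 (-0.26) fell. Of 12 folding and trimming genes Erap1 (0.43), Tapbpl (0.33) and Calr (0.24) rose. Endothelial markers moved as well: 8 of 10 rose from passage 14 to 18 and 10 of 10 from 12 to 18, with sums of 4897 to 5021 CPM at passage 14 and 6324 to 6781 at passage 18, and their part in the result was not tested.

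Across all 25 libraries, each table centred on its own mean, the gene whose log2 CPM ran closest to the mean of the 9 was Irf1, an interferon-induced transcription factor, with a root mean square difference of 0.149. It was followed by Trib2 (0.150), Glmp (0.152), Vwa5a (0.154) and the class I gene H2-Q4 (0.154), out of 9518 genes. Of the 9 genes themselves, Tapbp lay closest to that mean (0.121) and H2-D1 farthest (0.321). Psmb8 (0.140) and Psmb9 (0.223) had the same nearest gene outside the 9, Trim12c. For H2-K1 it was Tmem59 (0.176), for H2-D1 Zdhhc18 (0.143), for B2m Foxo4 (0.131), for Tap1 Antxr1 (0.180), for Tap2 Tifa (0.206), for Tapbp Cdc42se1 (0.162) and for Psmb10 Snx33 (0.136). These distances are a description; the 16 bacTRAP libraries share 1 table and the IP against INPUT difference enters all of them.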

How the data were processed

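Expression was measured by RNA sequencing in 25 libraries. The authors deposited 1 table of estimated counts per Ensembl gene for the bacTRAP libraries and another for cEND, not scaled to a common total. Genome build GRCm38 is named per the submitters' processing notes, and neither aligner nor counting program is given in the sources used here. Estimated counts were rounded, genes filtered with filterByExpr and libraries scaled with TMM factors. The quasi-likelihood test of edgeR 4.0.16 (robust, R 4.3.3) was fitted on each whole table, with Benjamini-Hochberg adjustment over all genes tested and a 2-sided threshold of 0.05. Diets were fitted within IP and within INPUT (8 libraries each), IP against INPUT and the interaction over 16, WZB117 over 9 by treatment, and passage over 9 with treatment as a term. CPM used the TMM factors of each table, and fold changes are from edgeR. All p-values measure the spread between these libraries, and Poisson counting error was not separated from it. No 2 libraries of a group agreed within sampling noise. The script was tested on simulated counts.

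The members, gene lists and tests were chosen with earlier results of these data known. Genes named outside the 9 were Psmb5, Psmb6 and Psmb7, up to 4 genes of lowest p per list and comparison, and the nearest genes by root mean square difference of log2 CPM, centred within each table (prior count 2), among genes with a mean of at least 1. Nlrc5 and Irf1 in other comparisons, and members of counts of 5 or fewer, were named after their values had been seen. Gene and promoter coordinates came from GENCODE M21 and the RefSeq table (GRCm38.p6).

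Same-numbered libraries were taken as paired where every correlation of their deviations was over 0.1. This held for passages (0.54 to 0.84) and for CD against HFD in INPUT (0.15 to 0.24), and not for CD against HFD in IP (0.03 to 0.05). Between INPUT and IP it held with CD (0.11 to 0.28) and not with HFD (0.02 to 0.24). Same-numbered CD and HFD pools were different mice. The main fits of IP against INPUT and of the interaction used no pairing. With a term for each pool, by diet and number, all 9 were again called higher in IP (adjusted p of 3.0e-12 or less, edgeR). For the interaction their adjusted p-values were then 0.90 to 0.99 (edgeR). DESeq2 1.42.0, RLE factors, no filter, the replicate block and each library left out were alternatives. Motif GAANNGAA and the principal-transcript length were the 2 added after the data had been seen.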

Additional observations from a re-analysis of the deposited data

Results flagged for a closer look

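Values of the 9 genes in each bacTRAP group of 4 libraries were searched for a library far from the rest, and 4 of the 36 groups held one; chance alone gives about 1 in 20. H2-K1 in HFD INPUT was highest in replicate 4, at 59.9 CPM, and Tap2 was highest in the same library, at 2.71 CPM. H2-D1 in CD IP was lowest in replicate 3, at 199.5 CPM. Tap2 in HFD IP was lowest in replicate 3, at 6.92 CPM.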

How the results depend on the processing

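The 9 calls for IP against INPUT and the 9 for passage 14 to 18 held under every alternative run, and no alternative called any of the 9 between diets. With the replicate block (passage), 2 genes were called for 10 µM against DMSO and 2 for 10 µM against 0.5 µM, in place of 0, and the calls over all genes moved from 197 to 2864 and to 2759; the block changed no other call of the 9. Without the treatment term, H2-D1 (adjusted p = 0.077) and Tap2 (0.069) were not called from passage 12 to 14 (edgeR). Values near 0 changed sign: B2m for diet in IP was -0.0081 with all 16 libraries in 1 fit, Psmb9 for diet in INPUT was -0.014 with the replicate block, and Psmb8 at 10 µM against DMSO was 0.0036 by DESeq2, 0.0026 with RLE factors and 0.0077 with no filter. Calls over all genes for diet moved from 14 to 193 in IP and from 6 to 50 in INPUT with DESeq2, and to 52 and 43 with the block. Leaving out 1 library, without the block, changed the sign of 18 of 69 fold changes. For the interaction the 69 held only H2-K1 and Psmb9. For 0.5 µM against DMSO they held only B2m and Psmb9, and for 10 against 0.5 µM only H2-D1 and Psmb10. None of the 18 was called in the fit without the block, but H2-D1 at 10 µM, which was called with the block, was among them. With 1 cEND library left out, the treatments no longer held the same passages. Within passages 12, 14 and 18, H2-D1 was higher with 10 µM than with DMSO by 0.29, 0.18 and 0.13 (log2). For those that changed sign, the lowest and highest log2 fold changes with 1 library left out follow. For diet in IP they were -0.068 and 0.087 for B2m and -0.14 and 0.030 for Tapbp. For diet in INPUT they were -0.018 and 0.14 for B2m, -0.17 and 0.059 for Tapbp, -0.10 and 0.060 for Psmb8 and -0.18 and 0.082 for Psmb9, and for the interaction -0.22 and 0.018 for H2-K1. For 10 µM against DMSO they were -0.069 and 0.33 for H2-K1, -0.014 and 0.44 for H2-D1, -0.15 and 0.047 for B2m, -0.15 and 0.27 for Tap1, -0.42 and 0.13 for Tap2, -0.26 and 0.25 for Tapbp and -0.42 and 0.33 for Psmb8. For 0.5 µM against DMSO they were -0.18 and 0.026 for B2m and -0.34 and 0.38 for Psmb9, for 10 against 0.5 µM -0.043 and 0.42 for H2-D1, and for passage 12 to 18 -0.059 and 0.14 for Tap1. The cause of these changes was not tested. Depth limits Psmb9 in cEND (22 to 72 reads) and Tap2 in INPUT (50 to 123 reads), and 3 libraries per treatment of 1 line limit every cEND value.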
